A study of Mus musculus with 2 samples.

Results

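Keratins are the intermediate filament proteins of epithelial cells. A type I (acidic) chain pairs with a type II (basic) chain to build the filament. In the colon the simple keratins Krt8 (type II) with Krt18 and Krt19 (type I) are the textbook filaments of the epithelium, and Krt20 marks differentiated cells near the surface. Krt5, Krt14 and Krt15 are known from the basal layer of stratified epithelia such as skin, and Krt6a, Krt16 and Krt17 from wounded or activated epidermis. The 54 keratin genes described here are all genes of the count matrices whose symbol is Krt followed by a number and at most 1 lower-case letter, of 55357 genes listed. They divide into 28 type I and 26 type II genes.

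The tissue was mouse colon tumour, profiled as single cells in 2 libraries, 1 for each genotype. The library labelled KO comes from ECM1Flox/Flox, Villin-Cre animals, in which Cre recombinase is driven by the Villin promoter, active in intestinal epithelium. The library labelled WT comes from ECM1Flox/Flox animals without Cre, so both carry the floxed alleles. The sources used here do not give the tumour model, the age and number of the animals, any pooling of animals or any further treatment. The labels describe a bulk RNA preparation and no capture chemistry. The series' title and design text concern ECM1 and neutrophils and state no question about keratins.

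Pairs of values below give the library labelled KO first and the library labelled WT second. Levels are UMIs (unique molecular identifiers, counted molecules) of a gene per 1000000 UMIs of the same group of cells, written CPM. UMI counts were not scaled for gene length, so levels are compared across cells and not between genes. With 1 library for each genotype there is no replicate check and no test, and every interval is an exact 95% interval for counting error only. Genotype, animal, library and, by the sex genes given below, sex differ together between the 2 libraries and cannot be told apart.

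The libraries held 4233 and 8262 cells after filtering, of which 2259 and 1928 were epithelial-like by 9 markers that include no keratin, with a median of 20174 and 11347.5 UMIs per epithelial-like cell. Ecm1, the floxed gene, was not lower in summed UMIs of epithelial-like cells of the KO-labelled library, but was lower there with each cell weighted equally. It stood at 40.8 and 34.7 CPM (ratio 1.18, 1.09 to 1.27), and at a ratio of 0.458 with equal weights. Among the epithelial subtypes named below, its ratio was 0.434 (0.367 to 0.512) in Wnt-high-like cells. The ratio was over 1 beyond counting error in surface-like (1.62), mitotic-like (1.71), regenerative-like (3.67), Paneth/defensin-like (3.82) and progenitor-like cells (4.16). In Gkn3/Tgm4-like, absorptive-like and goblet-like cells the interval included 1. The matrices hold no exon-level counts for a check of the floxed part. The libraries also differed in sex genes (Xist 1497 and 0.174 CPM, Ddx3y 0 UMIs and 76.7 CPM). All 9 neutrophil markers were at least 2-fold lower in epithelial-like cells of the KO-labelled library, against 7.55% of 15481 genes. Their summed level was 137 and 913 CPM. The libraries shared 17 barcodes, of which 15 were kept in each.

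Keratin RNA was concentrated in the epithelium. Of 501939 keratin UMIs in all cells, 482174 (96.1%) lay in epithelial-like cells. Keratins made up 0.618% and 0.450% of all UMIs in epithelial-like cells, against 0.0272% and 0.0218% in neutrophil-like cells and 0.0312% and 0.0196% in T-like cells. Of the 54 genes, 44 had at least 1 UMI and 23 had at least 50, and these 23 are the ones described with values. A further 21 had between 1 and 41 UMIs in total. The 10 genes at 0 UMIs (Krt2, Krt5, Krt9, Krt26, Krt40, Krt71, Krt72, Krt73, Krt74 and Krt76) belong to the groups listed here as basal, suprabasal or hair and inner root sheath keratins. The 4 simple keratins Krt7, Krt8, Krt18 and Krt19 gave 451548 UMIs, while the 26 genes of the hair and inner root sheath group gave 10922, of which Krt36 gave 8930.

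Epithelial-like cells were divided into 19 sub-clusters, with keratins left out of the genes used for clustering and out of the marker lists used for naming. Of these, 15 held at least 20 cells in each library, and sub-clusters given the same name are joined as a subtype. The surface-like cells (31 and 169) were led by Lypd8 and Car4, and the absorptive-like cells (228 and 40) by Muc3, Adh1 and Slc5a8. The Wnt-high-like cells (431 and 260) were led by Dkk2 and Sox11 in one sub-cluster and by Pnliprp2 and Cxcl14 in the other. The regenerative-like cells (61 and 22) were led by Cxcl5, Anxa1 and Aldh1a3. The remaining named groups were progenitor-like (350 and 122), mitotic-like (284 and 230), Paneth/defensin-like (115 and 206), goblet-like (71 and 29) and Gkn3/Tgm4-like cells (115 and 307). Enteroendocrine-like cells, led by Pyy, Chgb and Chga, numbered 6 in each library and are left out of the 9 subtypes for their small number. The Gkn3/Tgm4-like cells come mostly from different sub-clusters in the 2 libraries, with 91 of 115 from sub-cluster 10 in the first and 292 of 307 from sub-cluster 13 in the second.

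The 4 simple keratins were counted in each of the 9 epithelial subtypes and were all highest in regenerative-like cells but for Krt19 of the WT-labelled library, which was highest in surface-like cells. In that library the top pairs of Krt19 (surface-like and regenerative-like) and Krt18 (regenerative-like and Wnt-high-like) had overlapping intervals. Krt8, the main type II chain of simple epithelium, stood at 7824 (7718 to 7931) and 5508 (5266 to 5759) CPM in regenerative-like cells. In surface-like cells it stood at 6311 (6156 to 6468) and 4930 (4849 to 5011) CPM, and in absorptive-like cells at 3470 and 2909 CPM. Its lowest levels among the 9 subtypes were 1479 CPM in Gkn3/Tgm4-like cells of the KO-labelled library and 1111 CPM in Paneth/defensin-like cells of the WT-labelled library. The intervals of the regenerative-like and surface-like cells lie above those of the other 7 subtypes in both libraries. All keratins together made up 1.84% and 1.10% of UMIs in regenerative-like cells, 1.18% and 0.880% in surface-like cells, and 0.448% and 0.277% in Paneth/defensin-like cells.

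Krt19, a type I chain that lacks the usual tail domain, had its 2 highest levels in regenerative-like (4394 and 2341 CPM) and surface-like cells (3371 and 2460 CPM). Among the 9 subtypes it was lowest in Paneth/defensin-like (804 and 407 CPM) and Wnt-high-like cells (882 and 541 CPM). Krt18, the usual type I partner of Krt8, had another order. It stood at 2557 and 1362 CPM in regenerative-like cells and at 1742 and 1302 CPM in Wnt-high-like cells. It was lowest in surface-like (899 and 505 CPM) and absorptive-like cells (654 and 447 CPM), in both libraries. Krt7, a type II chain known from ductal and glandular epithelia, was highest in regenerative-like cells (1131 and 558 CPM) and lowest in absorptive-like cells (170 and 110 CPM). Across the 15 sub-clusters the log2(CPM + 1) levels of the 2 libraries ran together, with Pearson r of 0.95 for Krt8, 0.93 for Krt19, 0.90 for Krt7 and 0.89 for Krt18. These r values are a description, since the sub-clusters of a library share its preparation and both libraries were clustered jointly.

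**Figure D1:**
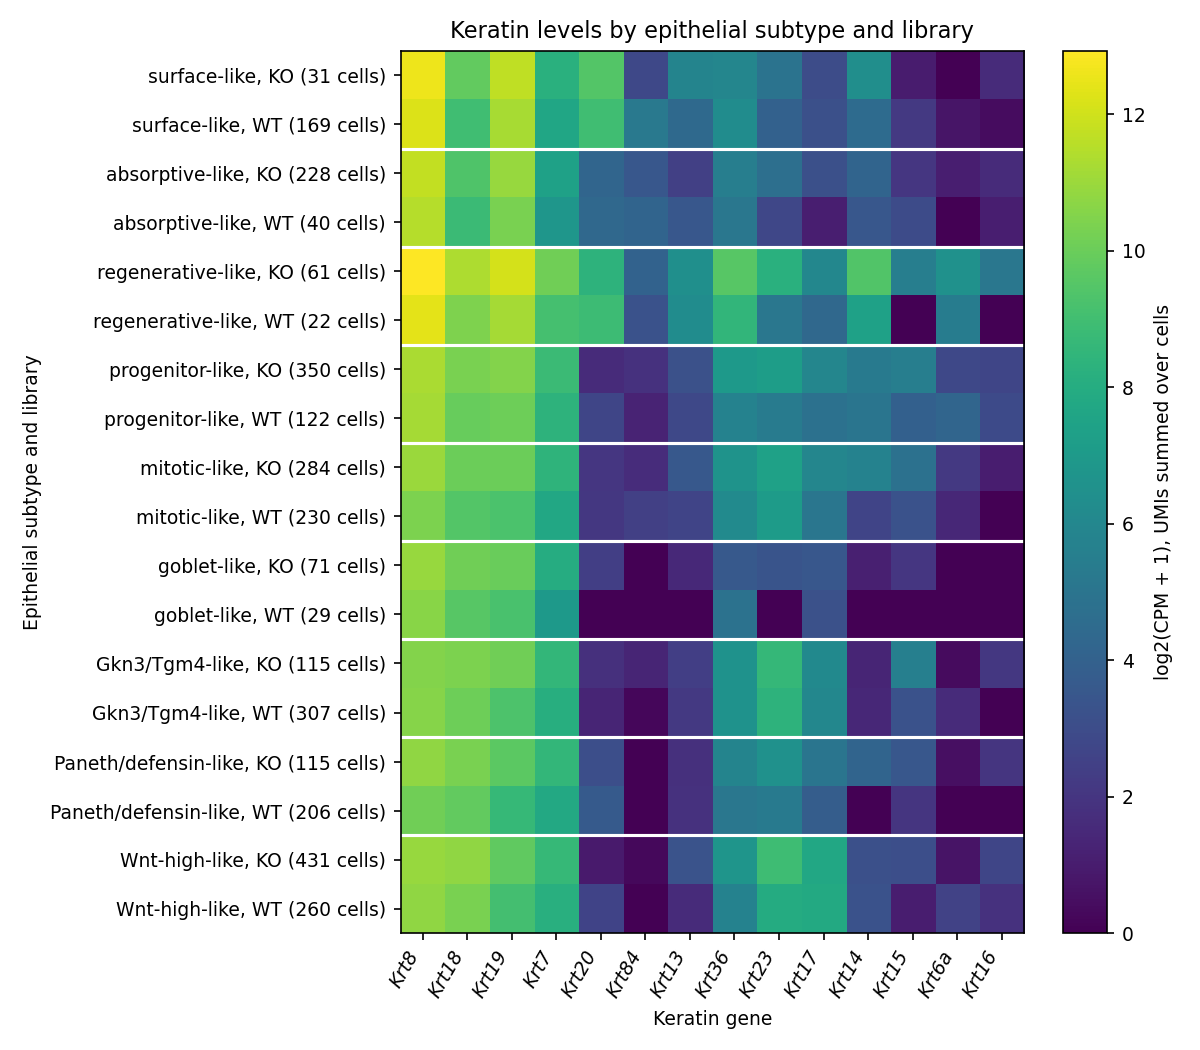
Levels of 14 keratins (columns) as log2(CPM + 1) of summed UMIs in 9 epithelial subtypes of each library (rows, with cell numbers). Krt8 and Krt19 are highest in surface-like and regenerative-like rows, Krt20 is highest in the same rows, and Krt23 is highest in Wnt-high-like and Gkn3/Tgm4-like rows.

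The balance of the 2 main type I chains differed between subtypes by more than counting error. Per Krt19 UMI, surface-like cells had 0.267 (0.248 to 0.287) and 0.205 (0.194 to 0.217) Krt18 UMIs, and absorptive-like cells had 0.337 (0.325 to 0.349) and 0.343 (0.305 to 0.385). Regenerative-like cells had 0.582 in both libraries, progenitor-like cells 0.848 and 0.913, and mitotic-like cells 0.992 and 1.14. The ratio was 1.62 (1.53 to 1.71) and 2.21 (2.06 to 2.36) in Paneth/defensin-like cells and 1.97 (1.92 to 2.03) and 2.41 (2.29 to 2.53) in Wnt-high-like cells. The 9 subtypes had the same order in both libraries, but some neighbours were not separated. The intervals of goblet-like cells overlapped those of Gkn3/Tgm4-like cells in the KO-labelled library and those of mitotic-like cells in the WT-labelled library, where Paneth/defensin-like and Wnt-high-like cells overlapped too. The ratio of Wnt-high-like to surface-like cells was 7.40 in the KO-labelled library and 11.7 in the WT-labelled library. Other clustering and filter settings moved it between 4.22 and 10.5 and between 6.29 and 19.4, in each case above 1. Single sub-clusters reached 3.49 and 4.39 Krt18 UMIs per Krt19 UMI in Wnt-high-like sub-cluster 8 and 3.22 and 5.02 in sub-cluster 4, an unnamed one led by H19 and Igf1.

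**Figure D2:**
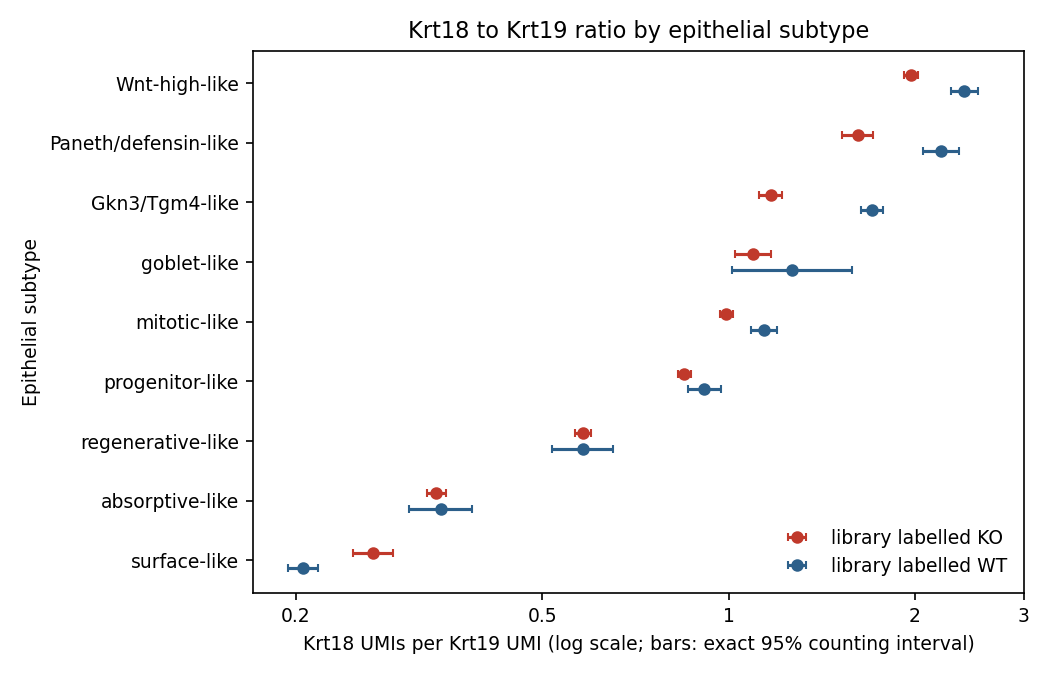
Krt18 UMIs per Krt19 UMI (log axis) in 9 epithelial subtypes, with a point for each library and bars for the exact 95% counting interval. The ratio runs from 0.267 and 0.205 in surface-like cells to 1.97 and 2.41 in Wnt-high-like cells, in the same order in both libraries.

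Summed over all members, type I and type II UMIs were of similar size. Epithelial-like cells had 1.10 (1.09 to 1.11) and 0.970 (0.959 to 0.980) type I UMIs per type II UMI. The value was lowest in absorptive-like (0.745 and 0.608) and surface-like cells (0.791 and 0.700) and highest in Gkn3/Tgm4-like (1.64 and 1.23) and Wnt-high-like cells (1.48 and 1.16). It was higher in the KO-labelled library in each of the 9 subtypes, with overlapping intervals in Paneth/defensin-like and goblet-like cells. Krt7 per Krt8, the balance within the type II chains, was low in surface-like (0.0460 and 0.0401) and absorptive-like cells (0.0490 and 0.0377). It was highest at 0.256 in Gkn3/Tgm4-like cells of the KO-labelled library and at 0.198 in Paneth/defensin-like cells of the WT-labelled library.

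Krt20, the keratin of differentiated intestinal cells, was high in 3 of the 15 sub-clusters. In surface-like cells it stood at 699 (649 to 753) and 493 (468 to 519) CPM, and in regenerative-like cells at 327 (306 to 350) and 467 (399 to 544) CPM. In sub-cluster 15, unnamed because its cells are shallow (20 and 333 cells, median 2200 and 2062 UMIs) and led by Ubd and Prss22, it stood at 1007 (794 to 1261) and 535 (486 to 587) CPM. Absorptive-like cells had 17.6 and 19.4 CPM, and Wnt-high-like cells 0.926 and 5.12 CPM. With cells thinned to 1000 UMIs, 45.2% (27.3 to 64.0) and 44.4% (36.8 to 52.2) of surface-like cells had a Krt20 UMI (96.8% and 88.8% without thinning), against 0 of 174 and 1 of 792 T-like cells. The surface-like share did not differ between the libraries beyond counting error.

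Over the whole epithelial-like class Krt20 was lower in the KO-labelled library, at 33.8 (32.3 to 35.3) and 77.1 (73.9 to 80.4) CPM, a ratio of 0.438 (0.412 to 0.465). Within surface-like cells the ratio was instead 1.42 (1.29 to 1.55), and within sub-cluster 15 it was 1.88 (1.46 to 2.41). It was 0.701 (0.593 to 0.833) in regenerative-like cells. The 2 libraries drew their Krt20 from different cells. Surface-like cells were 1.37% and 8.77% of epithelial-like cells and gave 36.5% and 64.9% of the Krt20 UMIs, and sub-cluster 15 was 0.885% and 17.3% of the cells and gave 3.94% and 20.1%. Regenerative-like cells, 2.70% and 1.14% of the cells, gave 45.3% and 7.46%. Without the surface-like cells the class ratio was 0.724, and without those and sub-cluster 15 it was 1.53. The numbers of surface-like cells can depend on dissociation and sampling, which were not tested.

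**Figure D3:**
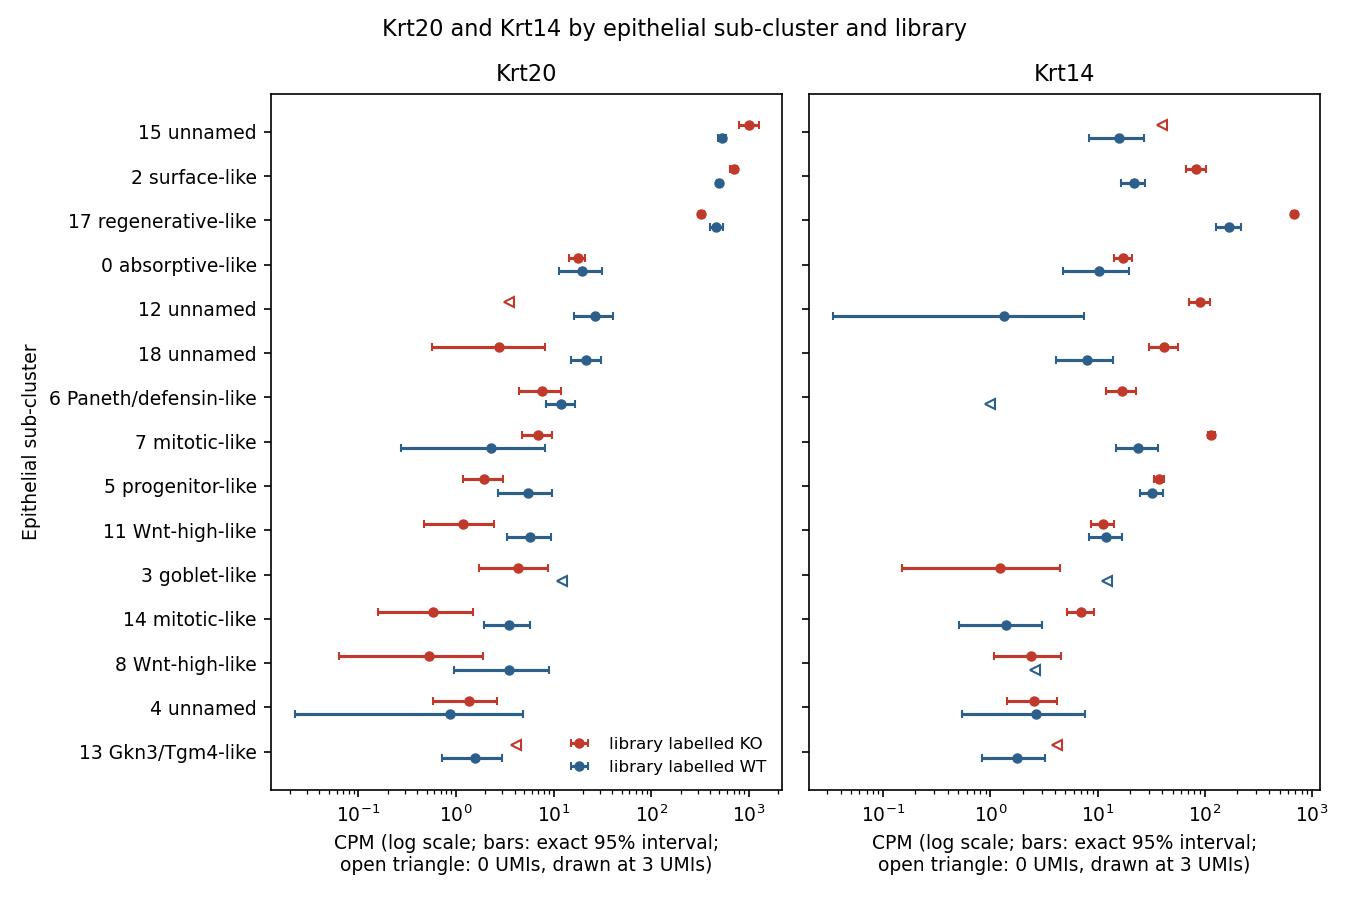
Krt20 (left) and Krt14 (right) in the 15 sub-clusters with at least 20 cells in each library, as CPM on a log axis, with a point for each library, bars for the exact 95% interval and open triangles at the level of 3 UMIs where none was counted. Krt20 is highest in sub-clusters 15, 2 and 17 in both libraries, and Krt14 is highest in regenerative-like sub-cluster 17 at 685 and 167 CPM.

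Among the less abundant members, 2 shared part of the Krt20 distribution. Krt84, a hair keratin by sequence family, stood at 5.97 (2.19 to 13.0) and 37.1 (30.5 to 44.8) CPM in surface-like cells and at 10.5 and 17.2 CPM in absorptive-like cells. In regenerative-like cells it stood at 15.7 (11.3 to 21.3) and 8.49 (1.75 to 24.8) CPM, the first being the highest level of the KO-labelled library. Of its 165 UMIs in epithelial-like cells of the WT-labelled library, 38 lay in 1 cell. It had 0 UMIs in Paneth/defensin-like and goblet-like cells of both libraries. Krt13, a type I chain of stratified mucosa such as oesophagus, stood at 86.2 (75.5 to 98.1) and 76.4 (50.4 to 111) CPM in regenerative-like cells and at 55.7 (42.1 to 72.3) and 20.3 (15.4 to 26.2) CPM in surface-like cells. It was at 8.16 and 5.94 CPM in progenitor-like cells. Krt84 was thus lower, and Krt13 higher, in surface-like cells of the KO-labelled library.

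Krt23, a type I keratin known from pancreatic and colon cancer cells, had a distribution unlike that of Krt20, with a Pearson r of -0.50 over the 19 sub-clusters. It stood at 485 (471 to 499) and 249 (233 to 265) CPM in Wnt-high-like cells. In Gkn3/Tgm4-like cells it stood at 333 CPM in the WT-labelled library, with a ratio of 1.18 (1.10 to 1.26). In surface-like cells it stood at 29.8 and 15.1 CPM, and in absorptive-like cells at 25.4 and 5.72 CPM. Goblet-like cells had 15 UMIs in the KO-labelled library and 0 in the WT-labelled library. In regenerative-like cells it stood at 294 (274 to 315) and 34.0 (17.6 to 59.3) CPM, on 784 and 12 UMIs, a ratio of 8.65 (4.93 to 16.8).

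Krt17, an epidermal keratin of wounds and appendages, was highest in Wnt-high-like sub-cluster 11, at 246 (233 to 259) and 285 (266 to 306) CPM. It was at 6.96 and 7.90 CPM in surface-like cells. Krt36, placed with the hair keratins by family, was highest in regenerative-like cells, at 769 (736 to 803) and 362 (302 to 431) CPM. It was at 106 and 52.2 CPM in Wnt-high-like cells and at 11.1 and 28.7 CPM in goblet-like cells. Krt17 was highest in Wnt-high-like cells in both libraries, and Krt23 in the KO-labelled library, while in the WT-labelled library Krt23 was higher in Gkn3/Tgm4-like cells.

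The sequences just upstream of 4 of these genes are printed to set Krt18 and Krt23, both higher in Wnt-high-like than in surface-like and absorptive-like cells, beside Krt20 and Krt84, which had the opposite order. Each is the 250 bases before the annotated start, 5′ to 3′ on the gene's strand, from RefSeq on GRCm38.p6, a build other than the GRCm39 of the counts. Krt18 lies at chr15:102027966-102028215 (+), Krt23 at chr11:99493121-99493370 (-), Krt20 at chr11:99438154-99438403 (-) and Krt84 at chr15:101532821-101533070 (-). Capitals mark matches, on either strand, to any of 5 motifs. The TATA box was searched as TATAAA and the GC box as GGGCGG. The AP-1 motif was searched as TGANTCA and the TCF/LEF motif as CTTTGA. The CDX motif was searched as TTTATG, which reads CATAAA on the other strand and so shares 5 letters with the TATA box.
Krt18: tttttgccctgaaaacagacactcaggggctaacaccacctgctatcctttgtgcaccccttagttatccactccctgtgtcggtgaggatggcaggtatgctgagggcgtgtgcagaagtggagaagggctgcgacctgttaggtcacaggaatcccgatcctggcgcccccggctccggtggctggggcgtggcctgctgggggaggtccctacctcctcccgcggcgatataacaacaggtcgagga
Krt23: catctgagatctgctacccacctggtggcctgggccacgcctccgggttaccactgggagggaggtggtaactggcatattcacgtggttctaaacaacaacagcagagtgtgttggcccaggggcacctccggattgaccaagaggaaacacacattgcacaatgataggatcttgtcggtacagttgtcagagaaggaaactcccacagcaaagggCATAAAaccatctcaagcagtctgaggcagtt
Krt20: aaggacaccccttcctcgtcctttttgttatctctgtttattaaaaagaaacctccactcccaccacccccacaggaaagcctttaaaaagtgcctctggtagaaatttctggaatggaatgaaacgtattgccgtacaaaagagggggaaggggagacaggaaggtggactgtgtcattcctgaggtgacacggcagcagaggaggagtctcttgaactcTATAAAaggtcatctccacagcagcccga
Krt84: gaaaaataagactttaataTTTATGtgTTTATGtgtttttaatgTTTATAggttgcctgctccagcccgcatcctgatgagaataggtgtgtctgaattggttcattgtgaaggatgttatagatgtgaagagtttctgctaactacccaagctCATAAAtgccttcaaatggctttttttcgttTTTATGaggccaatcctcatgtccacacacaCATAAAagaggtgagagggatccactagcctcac

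Krt20 and Krt84 each held 1 TATAAA match and Krt18 and Krt23 none. Krt84 held 5 TTTATG matches and Krt23 held 1. Of 37 windows that matched 36 of the 54 keratins, 17 held TATAAA (45.9%, against 12.4% of 32851 windows of all genes), 16 held TTTATG (43.2%, against 10.8%) and 2 held GGGCGG (5.41%, against 32.7%). TGANTCA was in 2 of the 37 (5.41%, against 6.75%) and CTTTGA in 9 (24.3%, against 13.8%). Neighbouring keratin genes are related copies, so the windows are not independent, and a match is a description of letters and not a site. Of the 4 genes, Krt18 lies beside the type II genes on chromosome 15, while the windows of the other type I genes lay on chromosome 11.

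The basal keratins differed among themselves. Krt14, a type I basal keratin, stood at 58.3 (56.3 to 60.3) and 10.3 (9.15 to 11.5) CPM in epithelial-like cells. Its type II basal partner Krt5 had 0 UMIs in both libraries, where 3 UMIs would stand for 0.0525 and 0.105 CPM. Trp63, the transcription factor that defines basal cells, had 2 and 1 UMIs in epithelial-like cells. Krt14 was highest in regenerative-like cells, at 685 (654 to 718) and 167 (127 to 215) CPM. It stood at 115 (106 to 125) and 24.0 (14.9 to 36.7) CPM in mitotic-like sub-cluster 7, at 83.6 and 21.7 CPM in surface-like cells and at 7.82 and 8.45 CPM in Wnt-high-like cells. The Krt14 level was higher in the KO-labelled library in the first 3 of these groups and overlapped in the last.

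Few cells carried most Krt14. In the KO-labelled library, regenerative-like cells gave 54.9% of its UMIs, and the 5 richest cells of the class gave 29.3%. In the WT-labelled library these shares were 20.0% and 32.9%. At least 5 Krt14 UMIs were counted in 95 and 12 epithelial-like cells, a cutoff chosen after the values were seen and one that favours deep cells. Of the 95, 39 were regenerative-like, 17 progenitor-like and 13 in mitotic-like sub-cluster 7. In the 95 cells and the 2164 others of the same library, Krt13 stood at 61.2 and 6.42 CPM, Krt36 at 429 and 82.3 CPM, Krt20 at 132 and 22.9 CPM, and Epcam at 3645 and 3127 CPM. The squamous-associated genes Ly6d (527 and 62.0 CPM), Lgals7 (16.7 and 3.44 CPM) and Serpinb5 (217 and 65.7 CPM) were higher in the 95 cells too, and Dsg3, a desmosomal cadherin of stratified epithelium, stood at 18.2 and 1.23 CPM. Dsc3, another such cadherin, had 0 and 39 UMIs, and Sprr1b had 0 in both sets of cells. Col17a1, a hemidesmosome gene of basal cells, stood at 1.40 (0.606 to 2.76) and 1.07 (0.806 to 1.39) CPM, with overlapping intervals. In the WT-labelled library, Dsg3 stood at 56.8 (36.0 to 85.2) CPM in the 12 cells and 1.77 CPM in the other 1916, while Krt20 stood at 81.5 (56.1 to 114) and 77.0 CPM, with overlapping intervals.

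Krt15, the other basal type I keratin, followed Krt14 only in part. It stood at 21.6 (20.4 to 22.9) and 5.86 (5.01 to 6.82) CPM in epithelial-like cells, at 47.6 and 8.54 CPM in Gkn3/Tgm4-like cells and at 44.6 and 14.8 CPM in progenitor-like cells. In regenerative-like cells it had 121 UMIs (45.4 CPM) in the KO-labelled library and 0 in the WT-labelled library, where the interval reaches 10.4 CPM. Its profile over the 15 sub-clusters was not shared between the libraries (Pearson r 0.16), and that of Krt14 was shared in part (r 0.61). Krt16, a wound-induced type I keratin, had 256 and 27 UMIs (4.48 and 0.942 CPM), with 91 and 0 of them in regenerative-like cells. Krt6a, a wound-induced type II keratin, stood at 90.7 (79.7 to 103) and 42.5 (23.8 to 70.0) CPM in regenerative-like cells, where 242 of its 363 and 15 of its 107 UMIs lay. The 5 richest cells gave 60.3% and 50.5% of Krt6a. Reads of near-identical keratin copies such as Krt6a and Krt6b, or Krt14, Krt16 and Krt17, may fit more than 1 copy. The sources used here do not say how the counting treated such reads.

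Over the epithelial-like class most keratins were higher in the KO-labelled library. All keratins together stood at 6183 and 4504 CPM, a ratio of 1.37, or 1.17 with each cell weighted equally. Of the 23 keratins, 19 had a ratio over 1, against 47.9% of the 15481 genes with at least 50 UMIs in these cells, and their median log2 ratio was 0.47 against -0.02 over those genes. At least 2-fold higher were 5 of 23, Krt14, Krt15, Krt16, Krt32 and Krt35, against 2.6% of all genes. The minimum of 50 UMIs was summed over both libraries. Krt16 (256 and 27 UMIs), Krt32 (60 and 10) and Krt35 (157 and 36) passed it through the KO-labelled library, so the count is a description only. At least 2-fold lower was 1 of 23, Krt20, against 7.55%. Epcam, an epithelial marker that is no keratin, had a ratio of 1.33 (3179 and 2384 CPM). The 9 epithelial markers summed to 8670 and 7527 CPM (ratio 1.15, single markers from 0.703 to 1.86, 6 of 9 over 1, none at 0), and the neutrophil markers were lower there as given above. The part of these markers in the keratin ratio was not tested. Without the sub-clusters led by immune or stromal genes the ratio for all keratins was 1.35. Sub-clusters that were kept still held neutrophil RNA, with S100a8 at 7.62 and 119 CPM in Wnt-high-like cells.

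**Figure D4:**
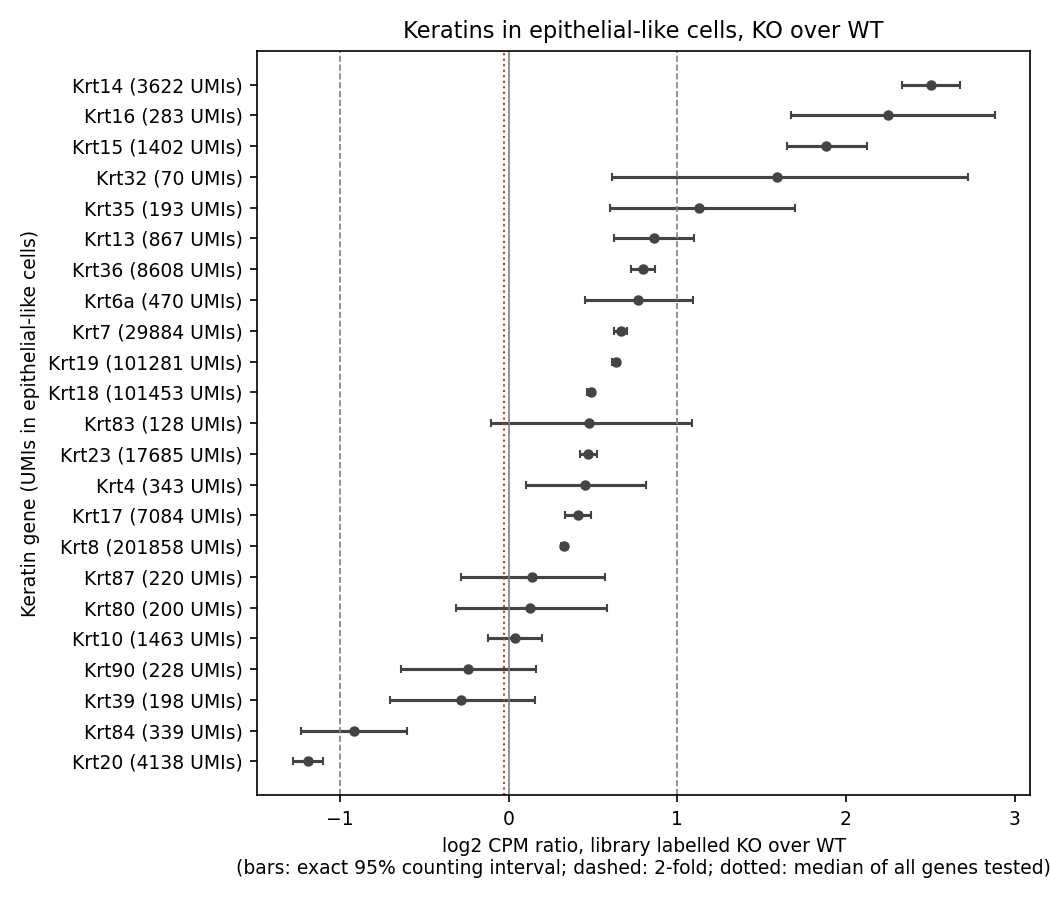
log2 ratio of CPM in epithelial-like cells, KO-labelled library over WT-labelled library, for the 23 keratins with at least 50 UMIs, with bars for the exact 95% counting interval, dashed lines at 2-fold and a dotted line at the median of all genes tested (-0.02). Krt14, Krt16 and Krt15 lie farthest to the right and Krt20 farthest to the left.

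The simple keratins had moderate ratios: 1.25 (1.24 to 1.27) for Krt8, 1.40 (1.38 to 1.42) for Krt18, 1.55 (1.53 to 1.58) for Krt19 and 1.58 (1.54 to 1.63) for Krt7. Krt19 was higher in the KO-labelled library in all 9 subtypes, with ratios from 1.37 in surface-like to 1.98 in Paneth/defensin-like cells. Krt8 did not differ beyond counting error in Gkn3/Tgm4-like cells (0.974, 0.941 to 1.01) and was 1.56 times higher in Paneth/defensin-like cells. The first of these ratios mostly sets sub-cluster 10 beside sub-cluster 13, and within sub-cluster 13 alone the Krt8 ratio was over 1. Of the 15 sub-clusters, Krt8 was higher beyond counting error in 13 and lower in 1. The ratio was 5.66 (5.03 to 6.40) for Krt14, 3.69 (3.14 to 4.36) for Krt15 and 4.76 (3.20 to 7.37) for Krt16. That of Krt14 was 3.30 without the regenerative-like cells, 2.61 with each cell weighted equally and 2.12 with equal weights for the 7 sub-clusters that hold at least 50 cells in both libraries, 1 of them led by neutrophil genes. The ratio of Krt16 was 1.88 with those equal sub-cluster weights and 13.3 without its 5 richest cells, and 13 of its 27 UMIs in the WT-labelled library lay in 1 cell. Krt36 (1.74, 1.65 to 1.83), Krt23 (1.39, 1.34 to 1.43), Krt17 (1.33, 1.26 to 1.40) and Krt13 (1.81, 1.54 to 2.14) were higher by less than 2-fold, but Krt13 had a ratio of 0.833 with each cell weighted equally. The 2-fold ratios of Krt35 (2.19, 1.52 to 3.24) and Krt32 (3.01, 1.53 to 6.60) rested on 193 and 70 UMIs, with 110 of the 157 Krt35 UMIs and 29 of the 60 Krt32 UMIs of the KO-labelled library in 1 cell each, and without its 5 richest cells Krt35 had a ratio of 0.731.

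The remaining members stood near equality or at low counts. Krt84 had a ratio of 0.530 (0.426 to 0.659), but 2.06 with those equal sub-cluster weights, which leave out the surface-like cells, and 1.35 over the class without the surface-like cells. Krt6a had a ratio of 1.70 (1.37 to 2.13), but 0.684 without the regenerative-like cells and 0.683 with cells weighted equally. With sub-clusters weighted equally, which also leaves out the regenerative-like cells, the Krt6a ratio was 0.283. Krt4, a type II chain of mucosal epithelium, had a ratio of 1.37 (1.07 to 1.76), and 2.13 and 2.72 with cells and sub-clusters weighted equally. Krt80 had 0.655 and 0.711 under the same weights. The ratios of Krt10 (1.03), Krt87 (1.10), Krt80 (1.09), Krt83 (1.39), Krt39 (0.824) and Krt90 (0.845) had intervals that include 1. In regenerative-like cells 8 of the 13 keratins with at least 50 UMIs were at least 2-fold higher in the KO-labelled library, against 12.6% of 6333 genes. None of the 13 was at least 2-fold lower, against 5.81%. A ratio over 1 was seen for 12 of the 13, against 55.6%. The 8 were Krt6a, Krt7, Krt14, Krt17, Krt23 and Krt36, and Krt15 and Krt16, which had 0 UMIs in the WT-labelled library. The minimum of 50 UMIs is summed over both libraries, and 3 UMIs stood for 1.12 and 8.49 CPM in these cells. Genes could pass through the KO-labelled library alone, as Krt15 (121 UMIs) and Krt16 (91 UMIs) did. The counts thus lean to genes high in that library, for keratins and all genes alike, and are a description only. In Wnt-high-like cells 6 of 15 were at least 2-fold higher, against 2.86%, and 0 lower, against 3.55%. The 6 were Krt4, Krt13, Krt15, Krt16, Krt36 and Krt35, whose UMIs in the KO-labelled library lay mostly in 1 cell, as given above. The same limit of the summed minimum holds here. Krt4 (49 and 3 UMIs), Krt13 (85 and 8), Krt15 (73 and 4), Krt16 (53 and 10) and Krt35 (118 and 6) passed mainly through the KO-labelled library. This count is a description only. Under the minimum of 50 UMIs and so not counted, Krt6a (0.127), Krt20 (0.181) and Krt80 (0.473) were lower beyond counting error. Krt32, with 32 and 0 UMIs, was higher. In progenitor-like cells 4 of 15 were at least 2-fold higher, against 3.59%, and Krt6a was at least 2-fold lower, against 2.77%. In surface-like cells 2 of 11 were at least 2-fold higher, Krt13 and Krt14, against 3.11%, and Krt84 was at least 2-fold lower, against 5.31%. The 61 and 22 regenerative-like cells had a median of 34900 and 9456 UMIs, and a sub-cluster received this name without the mitochondrial filter and at sub-clustering resolution 2, but under no other clustering setting run.

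Of the 23 keratins with at least 50 UMIs, Krt83 and Krt80 had more of their UMIs outside the epithelium than in it, with 21.9% and 34.3% in epithelial-like cells. Krt83, a hair keratin by family, stood at 45.9 (30.8 to 66.0) and 59.4 (50.1 to 70.0) CPM in T-like cells and at 31.5 (19.0 to 49.2) and 42.4 (36.7 to 48.9) CPM in neutrophil-like cells, against 1.65 and 1.19 CPM in epithelial-like cells. With cells thinned to 1000 UMIs, 3.45% (1.28 to 7.35) and 5.93% (4.39 to 7.81) of T-like cells had a Krt83 UMI, against 0.182% and 0.269% of epithelial-like cells. Monocyte/macrophage-like cells had 0.244 and 0.692 CPM. Krt80, a type II keratin of differentiating epithelia, stood at 17.3 (13.5 to 21.9) and 21.5 (18.5 to 24.8) CPM in monocyte/macrophage-like cells and at 17.5 (6.42 to 38.1) and 29.1 (22.9 to 36.5) CPM in conventional dendritic-like cells. It had 2.40 and 2.20 CPM in epithelial-like cells and 0 UMIs in T-like and B-like cells of both libraries. Krt80 overlaps the antisense gene Gm35853 in the GENCODE annotation of GRCm38, and the sources used here do not say whether the counting used strand. The same holds for Krt7 (Gm671), Krt8 (Gm36026), Krt10 (Gm11940), Krt32 (Gm11571) and Krt6a (Gm49428).

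Krt8 itself had a low level in immune-like classes, from 55.2 to 169 CPM in the KO-labelled library outside mast-like cells and from 35.7 to 153 CPM in the WT-labelled library. Mast-like cells of the KO-labelled library stood apart at 1273 CPM (153 in the other), with Epcam at 1784 and 117 CPM. Endothelial-like cells had 1227 and 870 CPM of Krt8 with Epcam at 1473 and 1525 CPM. Krt8 UMIs per Epcam UMI were 0.714 in mast-like and 0.833 in endothelial-like cells of the KO-labelled library, against 0.794 in its epithelial-like cells. In the WT-labelled library they were 1.30 in mast-like and 0.571 in endothelial-like cells, against 0.845 in its epithelial-like cells. Free RNA or doublets in these classes were not tested. An unnamed cluster of 225 and 298 shallow cells, led by Lars2 and Rn18s-rs5, had 3947 and 3172 CPM of keratins and was kept out of the epithelial-like class.

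**Figure D5:**
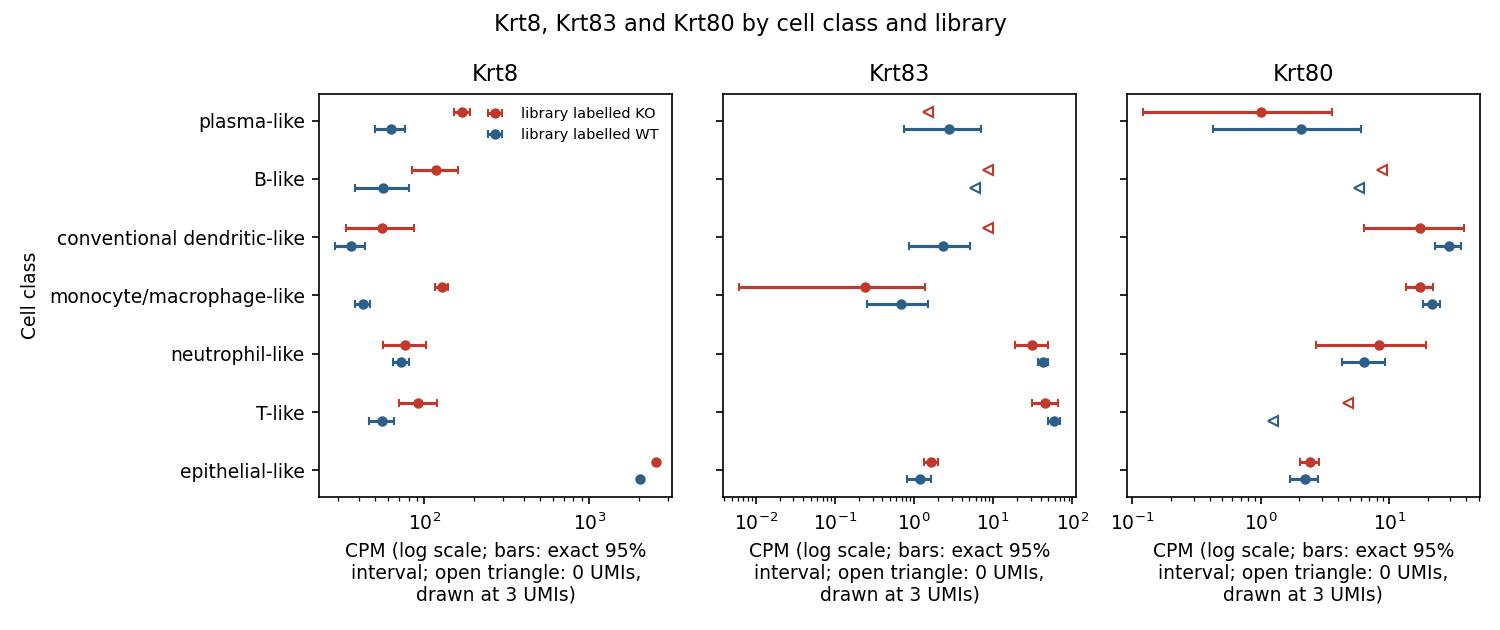
Krt8, Krt83 and Krt80 in 7 cell classes as CPM on log axes, with a point for each library, bars for the exact 95% interval and open triangles at the level of 3 UMIs where none was counted. Krt8 is highest in epithelial-like cells, Krt83 in T-like and neutrophil-like cells and Krt80 in monocyte/macrophage-like and conventional dendritic-like cells.

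Genes that work with keratin filaments are set beside the shares over all genes, 2.6% at least 2-fold higher and 7.55% at least 2-fold lower. Of 12 desmosome and cytolinker genes, which anchor the filaments, 0 were at least 2-fold apart, close to those shares, and the median log2 ratio was -0.10. Their most counted members were Dsp (268 and 287 CPM), Dsg2 (223 and 298 CPM) and Jup (234 and 243 CPM). Of 9 tested epithelial transcription factors of 10 listed, 0 were 2-fold apart, with Klf5 at 586 and 792 CPM, Klf4 at 511 and 473 CPM and Elf3 at 451 and 393 CPM. Of 5 tested other intermediate filament genes of 7 listed, 1 was at least 2-fold higher, Vim, the filament of mesenchymal cells, at a ratio of 2.26 (2.20 to 2.33). Beside it, all 4 tested of 7 fibroblast markers were at least 2-fold higher in the same cells (14.6 to 33.1-fold, 0 of the 7 at 0 UMIs, summed level 8.74 and 0.732 CPM), and their part in the Vim ratio was not tested. Vim itself stood at 1408 and 655 CPM in Wnt-high-like cells and at 114 and 15.8 CPM in surface-like cells. It stood at 54.3 and 10.3 CPM in absorptive-like cells and at 22.5 and 36.8 CPM in regenerative-like cells. Lmna stood at 466 and 297 CPM and Lmnb1 at 135 and 105 CPM. Of 12 tested cornified envelope genes of 16 listed, 5 were at least 2-fold higher and 2 at least 2-fold lower in the KO-labelled library, all of them Sprr2 genes. In that library the 5 stood at 16.1 to 85.1 CPM in regenerative-like cells. They stood at 5.97 CPM or less in surface-like, Wnt-high-like and absorptive-like cells. Sprr2d (54 and 1 UMIs) and Sprr2e (50 and 0 UMIs) passed the minimum of 50 UMIs through the KO-labelled library. Sprr2a3, the most counted cornified envelope gene, stood at 131 and 248 CPM, Sprr1a at 27.6 and 23.8 CPM and Tgm3 at 7.57 CPM in both, and the Sprr2 genes are near-identical copies whose counts are uncertain. The median log2 ratio over all genes tested was -0.02.

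Genes with profiles most like 4 keratins over the 19 sub-clusters were listed by Pearson r of log2(CPM + 1) among 12264 genes, as a description. For Krt20 the closest was Ceacam20 (r 0.95), which is itself one of the surface markers used for naming, followed by Cwh43, Pgap1, Myo15b and Nt5e. For Krt23 they were Sntb2 (r 0.95), Wwtr1, Arid5a, Aspa and Ier3. For Krt14 they included Tspo (r 0.91), Clic1, S100a14 and Vsig1, and for Krt7 they were Crip2 (r 0.77), Pdcd6, Lsr, Map6 and Krt18 (r 0.70). Among the keratins themselves, Krt19 ran with Krt8 (r 0.85) and Krt18 did not (r 0.20), while Krt18 ran with Krt17 (r 0.77).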

How the data were processed

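The members and gene lists were chosen with earlier results of these data known. Per the file headers, the authors made the deposited matrices with Cell Ranger 7.2.0. Their values are raw UMI counts per gene and barcode, and the genome build was GRCm39 per the submitters' processing notes. The sources used here do not give the annotation release, cell calling or strand use. The libraries held 75024663 and 59189995 UMIs in 4896 and 9512 barcodes.

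The filters kept barcodes with 200 genes or more and a mitochondrial share under 20%. Scrublet's automatic threshold marked 2 of 4387 (0.0456%) and 0 of 8895, which is no working call, so the highest scores at 0.8% per 1000 barcodes were removed, 154 and 633. Counts were scaled to 10000 per cell and clustered without integration (Python 3.11.15, scanpy 1.11.5, 2000 variable genes without keratins, 30 components, 15 neighbours, Leiden resolution 1, seed 0), as were the epithelial-like cells alone. Clusters were named from 15 class lists and 12 subtype lists without keratins, with at least 3 markers detected in 10% of the cells. A rule set after seeing the data chose among lists with at least 3 detected markers and counted immune and stromal lists among the leading genes of epithelial sub-clusters. Clusters that are shallow or led by another class stayed unnamed.

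UMIs were summed per library and group, with exact Poisson intervals for CPM, conditional binomial for ratios and Clopper-Pearson for shares (scipy 1.17.1). Ratio intervals were run on simulated Poisson sums, the counting error they are built for. The simulation holds no spread between cells or animals and so does not check the intervals against it. Keratins with at least 50 UMIs over all cells are named with values, and from each other list the 3 genes with the most UMIs. Sprr2d and Sprr2e are named beside these for their low counts. 1 gene with a profile like that of Krt14 is not reported here. The minimum of 20 cells per library, the Krt14 cutoff, the promoters and motifs, and the settings that leave out sub-clusters were chosen after seeing the data. With 1 library per genotype, called means a CPM ratio of at least 2 or at most 0.5.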

Additional observations from a re-analysis of the deposited data

Results flagged for a closer look

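Each result here is a keratin whose library ratio lay above 1 in 1 sub-cluster and below 1 in another, with neither 95% counting interval including 1. The sub-clusters have at least 20 cells in each library, at least 50 UMIs of the gene, and are not led by immune genes. The differences between sub-clusters were not tested. Krt8 had a ratio of 1.56 in Paneth/defensin-like sub-cluster 6 and 0.827 in the shallow sub-cluster 15, and Krt19 had 1.98 and 0.736 in the same 2. Krt20 had 1.88 in sub-cluster 15 and 0.701 in regenerative-like sub-cluster 17. Krt6a had 2.14 in sub-cluster 17, on 242 and 15 UMIs, and 0.336 in progenitor-like sub-cluster 5, on 58 and 36 UMIs. Krt17 had 2.89 in Gkn3/Tgm4-like sub-cluster 13, which held 24 cells of the KO-labelled library, and 0.861 in Wnt-high-like sub-cluster 11.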

How the results depend on the processing

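No paired analysis was possible because each genotype has 1 library, and no library could be left out. The ratio for all keratins (1.37) was 1.39 without doublet removal, 1.36 without the mitochondrial filter, 1.39 with keratins allowed among the variable genes, 1.17 with each cell weighted equally, 1.33 with each cluster weighted equally, 1.36 without the 5 richest cells of each gene, 1.40 with median-of-ratios scaling and 1.35 without sub-clusters led by immune or stromal genes (240 and 117 cells, a setting added after seeing the data). Keratins at least 2-fold apart numbered 6, and 10 with a minimum of 10 UMIs. Type I per type II UMIs (1.10 and 0.970) were 1.13 and 1.05 with cells weighted equally, 1.25 and 1.04 with clusters weighted equally, and 1.09 in the KO-labelled library without the richest cells. Ecm1 (1.18) was 0.458 with cells and 0.810 with clusters weighted equally and 0.991 without its richest cells. Krt35 went from 2.19 to 0.731 without its 5 richest cells, and Krt20 from 0.438 to 1.53 without surface-like cells and sub-cluster 15.

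The Krt18 to Krt19 ratio of Wnt-high-like over surface-like cells, 7.40 in the KO-labelled library, was 4.62 without doublet removal, 4.22 without the mitochondrial filter, 5.06 and 4.83 at Leiden resolution 0.5 and 2, 5.13 with keratins allowed, and 4.52 and 10.5 at sub-clustering resolution 0.5 and 2. In the WT-labelled library, 11.7 became 6.29 without the mitochondrial filter, 12.7 with keratins allowed, and 9.61 and 19.4 at sub-clustering resolution 0.5 and 2. The shares of surface-like cells with a Krt20 UMI, 45.2% and 44.4%, were 74.2% and 65.5% at 2000 UMIs per cell and 96.8% and 88.8% without thinning. The cause of these shifts was not tested, except that less thinning counts more UMIs per cell.

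Of the 23 keratin ratios, 19 kept their direction with cells weighted equally and 19 with clusters weighted equally. Turned with cells weighted equally were Krt6a (0.683), Krt10 (0.940), Krt13 (0.833) and Krt80 (0.655), and with clusters weighted equally Krt6a (0.283), Krt80 (0.711), Krt84 (2.06) and Krt87 (0.906). All 11 settings that changed the whole class kept the direction of Krt14 (2.12 to 5.97), Krt15 (3.36 to 4.22), Krt16 (1.88 to 13.3) and Krt20 (0.201 to 0.453). The equal cluster weights among these settings leave out the surface-like and regenerative-like cells and sub-cluster 15.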
